A study of Bos taurus with 18 samples.

Results

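Gene expression was compared between endometrium taken on day 7 of the estrous cycle after a 17-OHPC/P4 injection and endometrium taken on day 7 after a P4 injection. Cows A, B and C had received a depot with 100 mg of 17α-hydroxyprogesterone caproate (17-OHPC) and 10 mg of progesterone (P4) on day 4, and cows D, E and F had received 100 mg of P4 on day 4. These are 6 of the 18 libraries of the study, 3 per group, and they were taken by the cycle and arm named in the sample labels. The other 12 libraries come from the same 6 Holstein cows (Bos taurus) on day 7 and day 4 of an earlier cycle without injection, and they are used here as the untreated state of each arm. Day 0 is the day of estrus, and all cycles were synchronised by the Ovsynch hormone protocol. Cells were brushed from the lining of the horn ipsilateral to the corpus luteum, and their poly(A) RNA was sequenced and counted per gene. The arms differ in the compound, in the dose of P4 and in the cows that received it, so no dose-matched comparison of the compounds was possible, and a difference between treatments and a difference between cows cannot be told apart on treated day 7 alone.

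Progesterone is the steroid hormone that the corpus luteum releases after ovulation. It acts mainly through the nuclear progesterone receptor, which works with heat shock proteins and immunophilins, and in the early luteal phase it turns the endometrium from a dividing tissue into one that secretes nutrients for a free-living embryo. In ruminants the epithelium is known to lose the receptor later in the luteal phase. 17-OHPC is a synthetic progestin in which a fatty acid ester is attached to 17α-hydroxyprogesterone, and as an oily depot it is known to act for longer than injected progesterone. Roles given below for single genes are those known mainly from human and mouse.

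The 6 treated libraries held between 30112365 and 39010196 counts. The epithelial markers EPCAM and CDH1 stood at 359 to 639 and 773 to 1193 CPM (read counts scaled by effective library size), which fits the tissue label. CPM is not scaled by gene length, so levels are compared between libraries and not between genes. Across all 19638 genes that passed the filter on low counts, 2 libraries of different arms differed by a median of 0.306 to 0.506 on the log2 scale over 9 pairs. Within the 17-OHPC/P4 group the 3 pairs differed by 0.302 to 0.429, and within the P4 group by 0.365 to 0.429. The pairs that joined the treated and untreated day 7 libraries of 1 cow ranged from 0.214 to 0.329 in the 17-OHPC/P4 arm and from 0.299 to 0.505 in the P4 arm. The ranges between and within the treated groups overlapped for the most part. Single libraries stood apart in some gene groups. That of cow C was high in stromal and red blood cell genes, as were this cow's untreated libraries. Stromal markers of cow C summed to 4236 CPM on treated day 7 and to 6524 and 8689 CPM on untreated day 7 and day 4. Its red blood cell markers summed to 361, 4179 and 2393 CPM in that order. The library of cow A was low in immune cell genes, and that of cow E was high in immediate early genes. That of cow D had the highest mitochondrial share, 12.4% of counts against 6.21% to 9.65% in the other 5. Of the counts from 1 to 5, 78.0%, 77.4% and 74.3% were even in the 17-OHPC/P4 libraries, against 79.3%, 83.3% and 83.1% in the P4 libraries (exact two-sided permutation test, p = 0.1, the smallest p that 3 against 3 can give). On untreated day 7 these shares were 78.0%, 77.6% and 75.8% in the 17-OHPC/P4 arm and 80.8%, 81.3% and 80.6% in the P4 arm. On untreated day 4 they were 79.1%, 76.4% and 75.7%, against 79.7%, 81.4% and 80.9%. Every library of the 17-OHPC/P4 arm thus lay below every library of the P4 arm, in the untreated cycle too. The part of this difference in the results was not tested.

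Endometrium after 17-OHPC/P4 and endometrium after P4 differed in the expression of 2 genes, both lower after 17-OHPC/P4. With edgeR's quasi-likelihood test on all 18 libraries, 0 genes were higher and 2 were lower at a Benjamini-Hochberg adjusted p under 0.05, or 0.0102% of the genes tested. Before adjustment, 731 genes (3.72%) were higher and 1061 (5.4%) lower at p under 0.05. The 3 libraries of each group did not overlap for 1244 genes higher after 17-OHPC/P4 (6.33%) and for 1391 genes lower (7.08%). The same test called 1 gene (0.00509%) between the same cows on untreated day 7 and 542 genes (2.76%) on untreated day 4, of which 256 were higher and 286 lower in the 17-OHPC/P4 arm.

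The gene with the smallest p carries the identifier ENSBTAG00000071406, for which the deposited table gives no symbol. It stood at 35.7, 41.7 and 71.6 CPM in cows A, B and C after 17-OHPC/P4, against 507, 431 and 534 CPM in cows D, E and F after P4. The groups were far from overlapping, with means of 49.7 ± 19.2 and 491 ± 53.4 CPM (SD, n = 3 each). The log2 fold change was -3.30 ± 0.36 (standard error, as after every fold change here; adjusted p = 0.00381). The same cows already differed before any injection. On untreated day 7 the gene stood at 58.1, 71.9 and 86.5 CPM in the 17-OHPC/P4 arm, against 436, 450.2 and 835 CPM in the P4 arm, with a log2 fold change of -2.99 ± 0.36 (adjusted p = 0.0110). It was the 1 gene called on that day. On untreated day 4 its fold change was -2.35 ± 0.35 (adjusted p = 0.00895). All 9 libraries of the 17-OHPC/P4 arm lay below all 9 of the P4 arm.

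The second called gene, ENSBTAG00000072338, has no symbol either. It stood at 11.4, 12.8 and 12.5 CPM after 17-OHPC/P4, against 31.4, 36.8 and 33.0 CPM after P4 (-1.46 ± 0.18, adjusted p = 0.00831). Here too the groups did not overlap in the untreated cycle, with 14.5, 17.6 and 11.7 CPM in the 17-OHPC/P4 arm and 26.5, 27.4 and 25.4 CPM in the P4 arm on untreated day 7. The untreated fold changes were smaller, at -0.86 ± 0.18 on day 7 (adjusted p = 0.132) and -0.81 ± 0.18 on day 4 (adjusted p = 0.0349). Neither call was kept in every fit with 1 treated library left out, though the fold changes moved little. They ran from -3.66 to -3.11 for ENSBTAG00000071406 and from -1.51 to -1.38 for ENSBTAG00000072338. ENSBTAG00000071406 kept its call without cow C, D, E or F and had adjusted p values of 0.0592 and 0.0749 without A or B. ENSBTAG00000072338 kept it only without D or F, with 0.0740 to 0.104 without A, B, C or E.

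**Figure D1:**
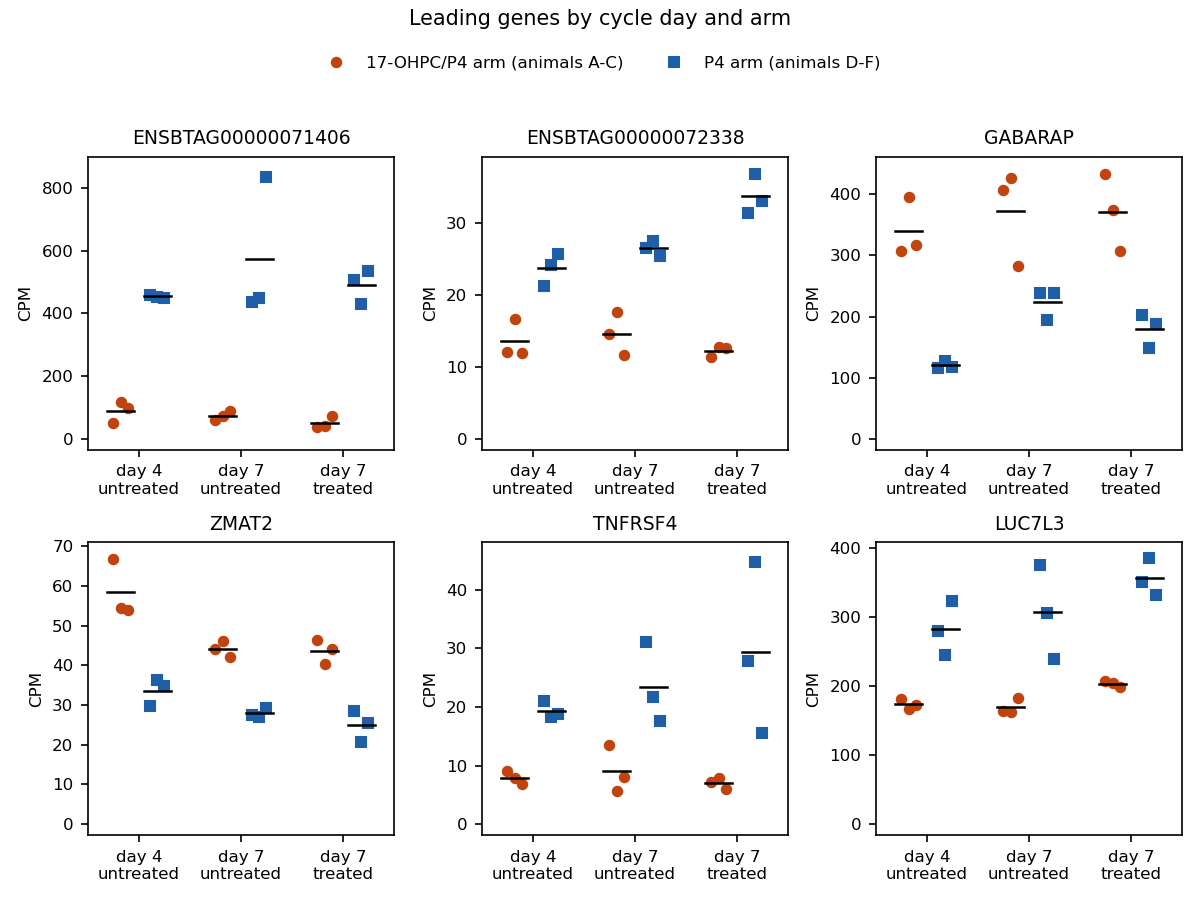
CPM of 6 leading genes in all 18 libraries, by cycle day on the x axis. Circles are cows A to C of the 17-OHPC/P4 arm, squares are cows D to F of the P4 arm, and the bar is the mean of 3 cows. The arms are separated on treated day 7 and also on both untreated days in each of the 6 genes; ENSBTAG00000071406 lies at 35.7 to 71.6 CPM after 17-OHPC/P4 and at 431 to 534 CPM after P4.

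No gene with a symbol of its own passed the threshold, so the 10 higher and 10 lower with the smallest p are given as values that did not pass (adjusted p from 0.0934 to 0.234). Among those higher after 17-OHPC/P4, ZMAT2, a zinc finger component of the spliceosome, had 46.4, 40.4 and 44.0 CPM after 17-OHPC/P4 and 28.5, 20.7 and 25.4 CPM after P4 (0.81 ± 0.14, adjusted p = 0.0934). GABARAP, an ATG8-family protein of the autophagosome membrane, had 433, 375 and 308 CPM after 17-OHPC/P4 and 203, 148 and 187 CPM after P4 (1.05 ± 0.20, adjusted p = 0.139). In both genes the lowest 17-OHPC/P4 library stood above the highest P4 library. BBLN, which encodes a small coiled-coil protein, had 9.73, 14.9 and 13.6 CPM after 17-OHPC/P4 and 6.20, 5.06 and 4.14 CPM after P4 (1.31 ± 0.24, adjusted p = 0.116). LAMTOR2, a subunit of the Ragulator complex on lysosomes, averaged 43.6 ± 1.74 CPM after 17-OHPC/P4 and 23.7 ± 3.51 CPM after P4. The other 6 were PRICKLE4, a member of a planar cell polarity family, MTHFS, an enzyme of folate metabolism, the apoptosis inhibitor FAIM, the chromatin-binding protein BANF1, the calpain small subunit CAPNS1 and the Ras-like GTPase RALB. Their log2 fold changes ran from 0.70 ± 0.15 for RALB to 1.08 ± 0.23 for FAIM.

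Among the genes lower after 17-OHPC/P4, NEK8, a kinase of the primary cilium, had 24.9, 30.3 and 23.6 CPM after 17-OHPC/P4 and 47.2, 53.9 and 49.8 CPM after P4 (-0.94 ± 0.16, adjusted p = 0.0934). TNFRSF4, the T cell costimulatory receptor OX40, had 7.20, 7.94 and 5.97 CPM after 17-OHPC/P4 and 27.8, 44.8 and 15.6 CPM after P4 (-2.06 ± 0.37, adjusted p = 0.110). The P4 libraries of TNFRSF4 were spread widely, but the lowest of them still lay above every 17-OHPC/P4 library. LUC7L3, a splicing factor, had 208, 204 and 199 CPM after 17-OHPC/P4 and 351, 385 and 331 CPM after P4 (-0.81 ± 0.17, adjusted p = 0.218). SEMA3B, a secreted semaphorin, had 103, 163 and 136 CPM after 17-OHPC/P4 and 290.3, 344 and 224 CPM after P4 (-1.09 ± 0.24, adjusted p = 0.234). The remaining 6 were PCID2, a protein of messenger RNA export, the O-mannosyltransferase POMT1, NEMF of the ribosome quality control pathway, WDR13, EEF1D and the zinc finger repressor ZBTB20. The rows of EEF1D and ZBTB20 were low, at 0.823 ± 0.216 and 1.05 ± 0.408 CPM after 17-OHPC/P4 and at 3.02 ± 0.450 and 5.45 ± 1.51 CPM after P4.

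These leading genes separated the same cows before injection. Of the 22 genes, 2 called and 20 ranked, 20 did not overlap between the arms on untreated day 7 and all 22 did not overlap on untreated day 4, each in the direction seen on treated day 7. Over all genes tested, 7.1% were higher and 6.8% lower in the 17-OHPC/P4 arm without overlap on untreated day 7, and 15.6% and 15.5% on untreated day 4. All 9 libraries of 1 arm lay on 1 side of all 9 of the other in 17 of the 22. Over all genes tested, such a complete separation of 9 against 9 was found for 90 genes higher (0.458%) and 96 lower (0.489%) in the 17-OHPC/P4 arm. GABARAP, for example, stood at 407, 427 and 284 CPM in the 17-OHPC/P4 arm and at 239, 194 and 238 CPM in the P4 arm on untreated day 7. Its log2 fold change between the arms was 0.74 ± 0.20 on that day and 1.50 ± 0.20 on untreated day 4 (adjusted p = 0.208 and 0.00895). LUC7L3 had 164, 162 and 183 CPM in the 17-OHPC/P4 arm and 375, 305 and 239 CPM in the P4 arm on untreated day 7, a fold change of -0.86 ± 0.17, close to that on treated day 7. The 2 that overlapped on untreated day 7 were RALB and POMT1. RALB had 71.7, 62.9 and 65.7 CPM in the 17-OHPC/P4 arm and 58.1, 59.9 and 65.0 CPM in the P4 arm on that day, against 69.6, 65.9 and 69.1 CPM after 17-OHPC/P4 and 49.8, 30.9 and 45.4 CPM after P4 in the treated cycle.

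**Figure D2:**
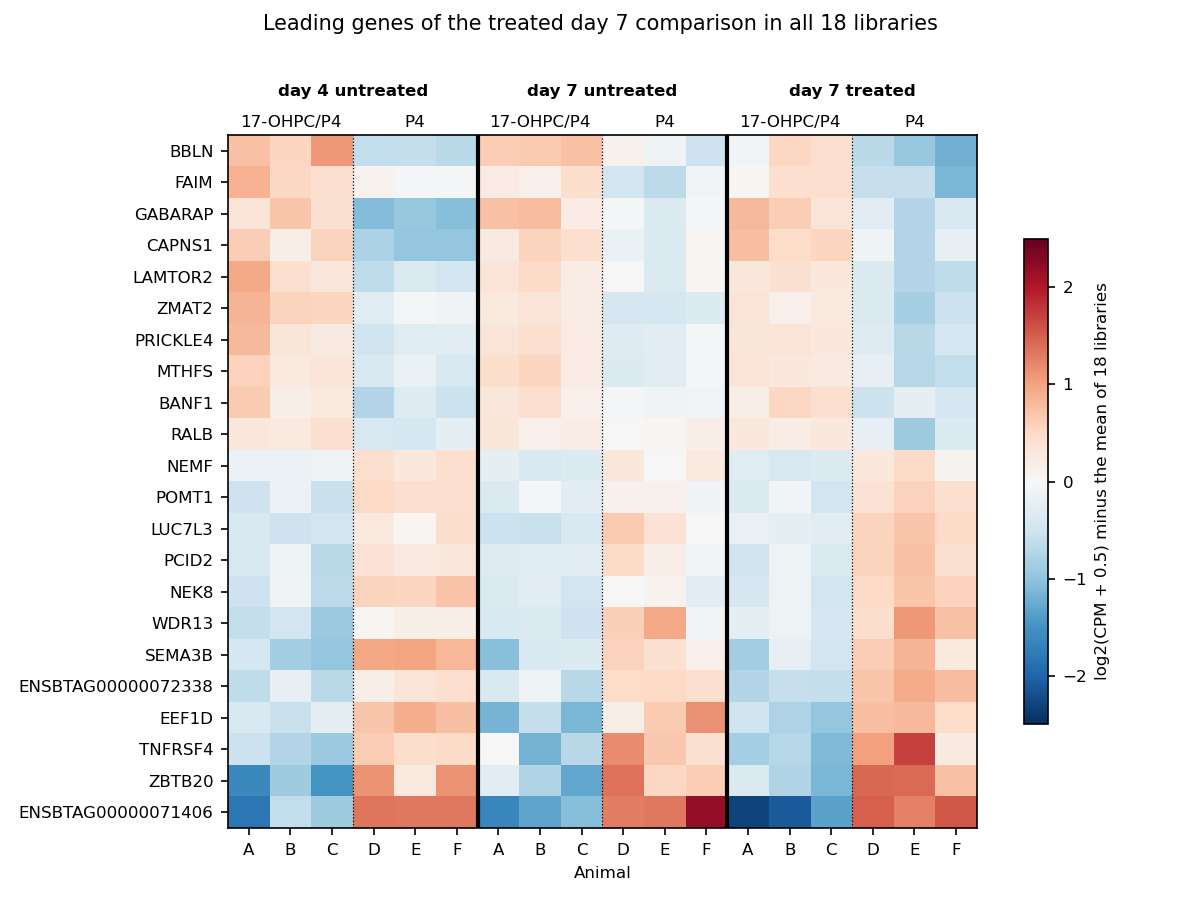
Level of the 2 called and 20 ranked genes in the 18 libraries, as log2(CPM + 0.5) minus the gene's mean over all 18. Columns run from day 4 untreated to day 7 treated, with cows A to C of the 17-OHPC/P4 arm left of cows D to F of the P4 arm in each block. The upper 10 genes are higher and the lower 12 are lower in cows A to C, in the untreated blocks as well as in the treated one, except that POMT1 and RALB overlap on untreated day 7.

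The share of genes with such a separation before injection was lower further down the ranking. Of the 50 genes with the smallest p, 47 did not overlap in the same direction on untreated day 7, 50 did not on untreated day 4, and 37 were separated 9 against 9. Of the 1244 genes higher without overlap on treated day 7, 29.6% did not overlap in the same direction on untreated day 7 and 54.8% on untreated day 4. Of the 1391 lower genes, 31.7% and 50.1% did so. These shares stand against the 7.1% and 6.8% on untreated day 7 and the 15.6% and 15.5% on untreated day 4 over all genes. Separation 9 against 9 was found in 7.23% of the higher and 6.9% of the lower genes. These are the same 90 and 96 genes as over all genes tested, since such a gene cannot overlap on treated day 7. Separation in the opposite direction was rare, in 6 and 6 of the higher genes and in 10 and 12 of the lower genes. The extreme of this pattern was formed by 4 tested genes without a symbol, which had 0 counts in all 9 libraries of the 17-OHPC/P4 arm and at least 2 counts in each of the 9 libraries of the P4 arm. The most abundant of them had 0 counts in every 17-OHPC/P4 library and 106, 66 and 98 counts in the P4 libraries on treated day 7, and 42 to 496 counts over all 9 libraries of that arm. Of the other 3, the highest count in any P4 library was 33. No tested gene showed the reverse.

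The change within each cow from untreated to treated day 7 leaves out the level at which the cow started. The difference of these changes between the arms, tested with the cow as a block, called 0 genes (0%); 492 genes had an unadjusted p under 0.05, and the smallest adjusted p was 1. Without the block the count was also 0, with 247 genes at an unadjusted p under 0.05. Among the leading genes NEK8 had the smallest p. Its log2(CPM + 0.5) moved by -0.06, 0.16 and -0.01 in cows A, B and C and by 0.50, 0.59 and 0.86 in cows D, E and F, a difference of -0.63 ± 0.19 (edgeR, adjusted p = 1). RALB moved by -0.04, 0.07 and 0.07 in the 17-OHPC/P4 arm and by -0.22, -0.94 and -0.51 in the P4 arm (0.59 ± 0.20, adjusted p = 1). In both genes the 3 cows given 17-OHPC/P4 stayed near their untreated level and the 3 cows given P4 moved away from theirs. The leading genes were ranked on these same treated libraries, so their within-cow changes describe them and are no further test. For GABARAP the difference was 0.33 ± 0.25, for LUC7L3 0.04 ± 0.26 and for ENSBTAG00000071406 -0.39 ± 0.35, each with an adjusted p of 1.

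DESeq2, the tool named in the submitters' processing notes, called more genes from the same 18 libraries. It called 114 genes higher and 101 lower after 17-OHPC/P4 at an adjusted p under 0.05, or 1.17% of the genes to which it gave an adjusted p. Of these, 113 and 98 did not overlap between the treated groups, and 73 and 69 did not overlap in the same direction on both untreated days either. Over all genes tested, 2.29% were higher and 2.69% lower without overlap on both untreated days. All 22 leading genes were among its calls. Other calls were MYL12A, a regulatory light chain of non-muscle myosin (0.71 by DESeq2, adjusted p = 2.16e-06), and EIF1, a translation initiation factor (0.65 by DESeq2, adjusted p = 0.000188). Both were named after their values were seen, and both were separated in the same direction on untreated day 7 and day 4.

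Separation on the treated day alone was found for 2 genes higher and 4 lower among the DESeq2 calls. Of all genes tested, 6.33% were higher and 7.08% lower without overlap on treated day 7. Of these, 29.6% and 31.7% were separated in the same direction on untreated day 7, and 54.8% and 50.1% on untreated day 4. The share of all genes separated on the treated day alone was not counted. Of the 6 genes, 4 have a symbol: STMN1, ABTB1, MUTYH and KRT4, the first 3 named after their values were seen. STMN1 encodes stathmin, a protein that destabilises microtubules and is abundant in dividing cells. It had 62.1, 60.1 and 90.1 CPM after 17-OHPC/P4, against 23.7, 27.6 and 22.3 CPM after P4. The lowest 17-OHPC/P4 library was more than 2 times the highest P4 library. On untreated day 7 the arms overlapped, with 61.4, 59.0 and 95.2 CPM in the 17-OHPC/P4 arm and 51.7, 46.0 and 81.5 CPM in the P4 arm. Since STMN1 was chosen by these same values, the within-cow changes and the interval that follow describe it and are no further test. Within cows, STMN1 moved by 0.02, 0.03 and -0.08 on the log2 scale in the 17-OHPC/P4 arm and by -1.11, -0.73 and -1.85 in the P4 arm. The log2 fold change on treated day 7 was 1.53 ± 0.38, with a 95% interval of 0.72 to 2.34. It was called by DESeq2 (adjusted p = 0.0166) and not by edgeR (adjusted p = 0.279). The difference of the within-cow changes was 1.26 ± 0.48 (edgeR, adjusted p = 1).

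ABTB1, an ankyrin repeat and BTB domain protein, had 162, 233 and 153 CPM after 17-OHPC/P4 and 352, 433 and 384 CPM after P4 (-1.09 ± 0.28, adjusted p = 0.279 by edgeR and 0.0414 by DESeq2). On untreated day 7 its fold change was -0.85 ± 0.28, with overlap in 1 library of the P4 arm at 156 CPM. MUTYH, a DNA glycosylase of base excision repair, averaged 6.97 ± 1.63 CPM after 17-OHPC/P4 and 14.6 ± 3.58 CPM after P4 (-1.07 ± 0.30, adjusted p = 0.294 by edgeR and 0.0468 by DESeq2). KRT4, a keratin of stratified epithelia, had 0 counts in the 3 libraries after 17-OHPC/P4 and 32, 6 and 81 counts in the libraries after P4 (adjusted p = 0.307 by edgeR and 0.00371 by DESeq2). It was the 1 member of the gene lists among the DESeq2 calls. On untreated day 7 KRT4 stood at 1.36, 0.0895 and 0.0491 CPM in cows A, B and C of the 17-OHPC/P4 arm. Only cow A was clearly above the floor there, since the values of cows B and C stand for a few counts.

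The progesterone receptor and its partners gave no called gene. PGR, the nuclear progesterone receptor, had 53.6, 33.7 and 81.4 CPM after 17-OHPC/P4 and 47.4, 31.4 and 37.1 CPM after P4. The groups overlapped, and the log2 fold change of 0.54 ± 0.37 had a 95% interval of -0.24 to 1.32 (adjusted p = 0.721), or 0.18 without cow C. PGR moved by 0.88, 0.35 and 0.62 within cows A, B and C and by 0.08, -0.03 and -0.26 within D, E and F (difference 0.68 ± 0.35, adjusted p = 1). ESR1, the estrogen receptor alpha, averaged 346 ± 89.6 CPM after 17-OHPC/P4 and 317 ± 60.0 CPM after P4, a difference of 0.12 with an interval of -0.53 to 0.78. FKBP5, a receptor immunophilin that steroid hormones induce, had 512, 185 and 295 CPM after 17-OHPC/P4 and 286, 181 and 249 CPM after P4 (0.47 ± 0.46, interval -0.51 to 1.45; 0.01 without cow A). Among the chaperones of steroid receptors, PTGES3, the p23 cochaperone, had 263, 265 and 239.7 CPM after 17-OHPC/P4 and 207, 187 and 180.0 CPM after P4 (0.42 ± 0.18, adjusted p = 0.505), without overlap. HSP90AA1 averaged 1095 ± 129 CPM after 17-OHPC/P4 and 822 ± 155 CPM after P4 (0.41 ± 0.22, adjusted p = 0.598). Of the 20 receptors and cochaperones in the list, 10 had positive and 10 negative fold changes (median -0.01, against -0.02 over all genes tested). Their summed level was 4329, 3993 and 3838 CPM after 17-OHPC/P4 and 3375, 3583 and 3684 CPM after P4 (exact two-sided permutation test, p = 0.1).

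Enzymes of steroid metabolism were also without a call, with 10 of 19 fold changes positive (median 0.10). SRD5A1, a steroid 5α-reductase that converts progesterone, had 24.5, 16.5 and 15.3 CPM after 17-OHPC/P4 and 13.1, 8.14 and 16.4 CPM after P4 (0.58 ± 0.37, interval -0.20 to 1.36). CYB5A, the cytochrome that assists steroid lyase reactions, averaged 107 ± 17.9 CPM after 17-OHPC/P4 and 59.8 ± 35.4 CPM after P4 (0.84 ± 0.45, adjusted p = 0.608). AKR1B1, a prostaglandin F synthase of bovine endometrium, had 3289.7, 3217 and 1212 CPM after 17-OHPC/P4 and 1407, 1120.4 and 3085 CPM after P4, so that each group held both high and low libraries. OXTR, the oxytocin receptor, was just as uneven, at 64.8, 213 and 703 CPM after 17-OHPC/P4 and 131, 653 and 90.9 CPM after P4 (0.16 ± 0.96, interval -1.88 to 2.21).

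**Figure D3:**
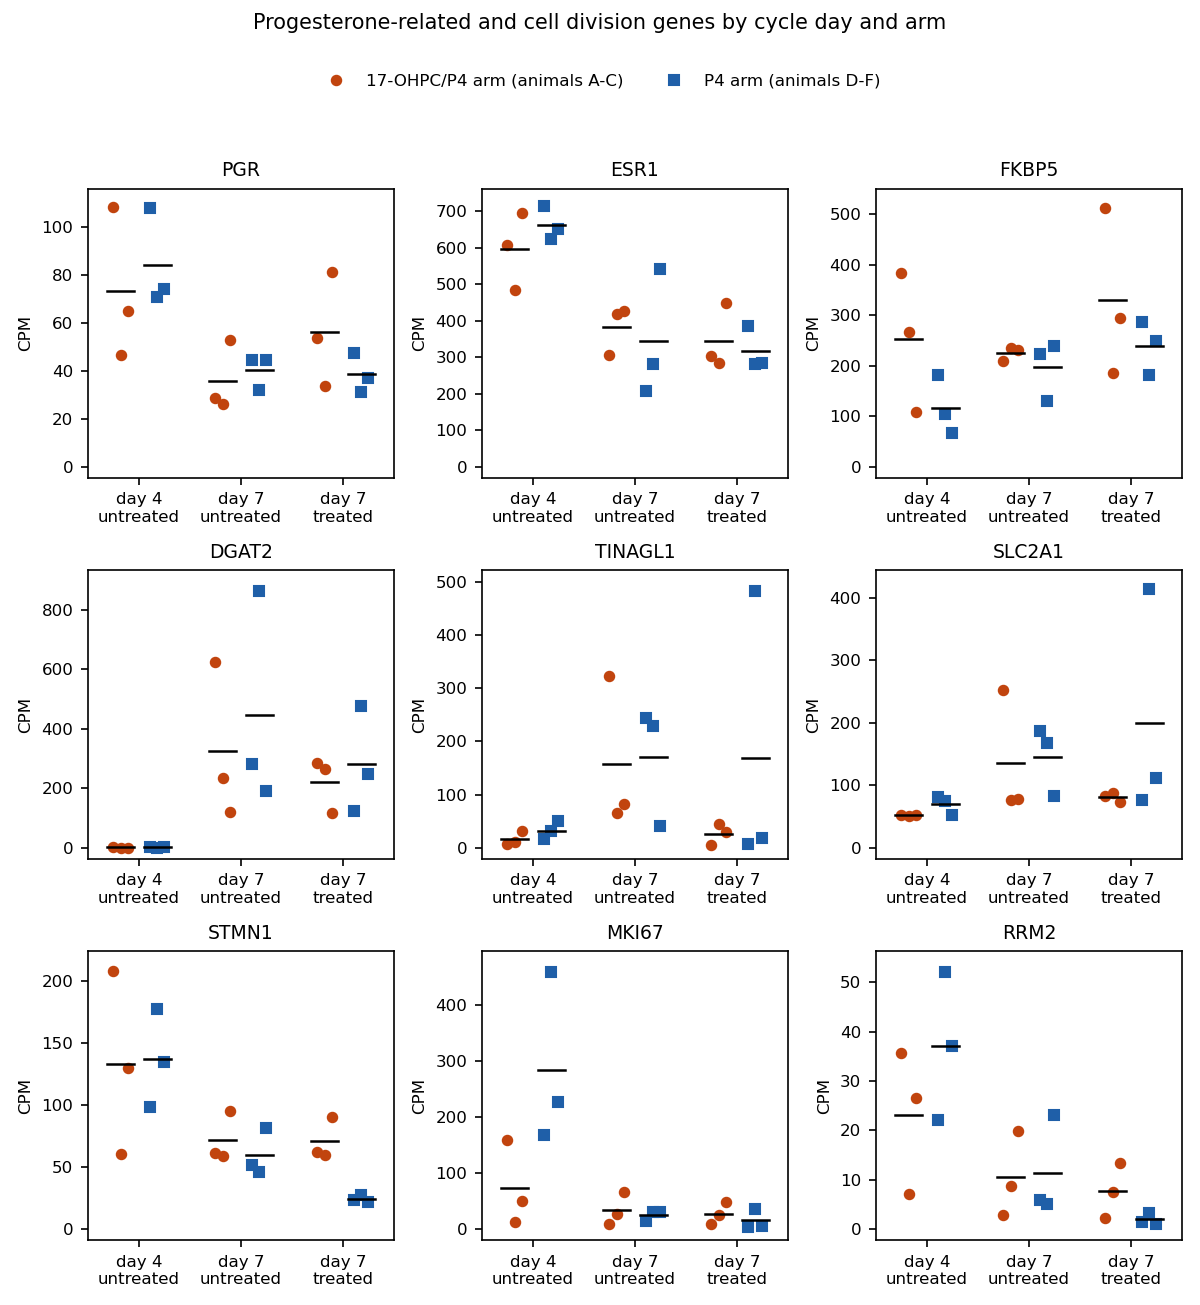
CPM of 9 genes in all 18 libraries by cycle day. Circles are cows A to C of the 17-OHPC/P4 arm, squares are cows D to F of the P4 arm, and the bar is the mean of 3 cows. The arms overlap on treated day 7 in every panel but STMN1, whose 17-OHPC/P4 libraries lie at 60.1 to 90.1 CPM and whose P4 libraries lie at 22.3 to 27.6 CPM; in TINAGL1 and SLC2A1 cow E alone is high after P4.

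Genes known as progesterone-responsive in the ruminant endometrium of the early luteal phase tended to lower values after 17-OHPC/P4, without any call. Of 28 tested members 7 had positive and 21 negative fold changes, with a median of -0.41, against -0.02 over all genes. The median was -0.00 on untreated day 7 and 0.48 on untreated day 4. The differences of the within-cow changes had a median of -0.09 in this list, with 12 of 28 positive, against -0.05 over all genes. Their summed level was 10982, 12161 and 10332 CPM after 17-OHPC/P4 and 16474, 13734 and 14295 CPM after P4 (exact two-sided permutation test, p = 0.1). In the untreated cycle the same sum ranged from 4160 to 27593 CPM, wider than the difference between the treated groups. The secreted iron-binding protein LTF alone made up 7884 CPM of the sum in cow D. It had 336, 3666 and 2470 CPM after 17-OHPC/P4 and 7884, 155 and 746 CPM after P4. Without LTF the sum of cow D lay within the range of the 17-OHPC/P4 libraries, so the separation of the sums rested on this gene. DGAT2, which makes triglycerides and is known to respond to progesterone in cattle, had 287, 265 and 117 CPM after 17-OHPC/P4 and 125, 476 and 248 CPM after P4 (-0.35 ± 0.74, interval -1.92 to 1.23). In the untreated cycle DGAT2 was at most 4.73 CPM in any cow on day 4, and on day 7 it had already 625, 234 and 121 CPM in the 17-OHPC/P4 arm and 281, 863 and 193 CPM in the P4 arm.

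Several negative values in this group came from the level in cow E. SLC2A1, the glucose transporter GLUT1, had 82.4, 87.1 and 74.3 CPM after 17-OHPC/P4 and 76.5, 413 and 111 CPM after P4 (-1.30 ± 0.56, adjusted p = 0.506; -0.19 without cow E). TINAGL1, a matrix protein, had 4.96, 44.8 and 30.2 CPM after 17-OHPC/P4 and 7.11, 483 and 19.0 CPM after P4 (-2.67 ± 1.29, adjusted p = 0.565; 1.04 without cow E). MSTN, the growth inhibitor myostatin, had -2.27 ± 1.37 with cow E and 1.55 without it. The matrix protein CCN2 kept its direction without any 1 treated library. It had 95.5, 292 and 175 CPM after 17-OHPC/P4 and 338, 626 and 461 CPM after P4, without overlap (-1.34 ± 0.68, adjusted p = 0.587), and its fold change without any 1 library ran from -1.81 to -1.02. On untreated day 7 the arms were also separated in this gene, at 346, 229 and 353 CPM in the 17-OHPC/P4 arm and 690.2, 375 and 382 CPM in the P4 arm.

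Targets of the progesterone receptor known from mouse and human uterus gave 0 calls, with 8 of 27 values positive (median -0.13). On untreated day 7, 18 of 27 were positive (median 0.43), and on untreated day 4, 19 of 27 (median 0.34). The differences of the within-cow changes were positive in 5 of 27 (median -0.40, against -0.05 over all genes). IHH, the hedgehog ligand of the uterine epithelium, averaged 3.15 ± 1.98 CPM after 17-OHPC/P4 and 6.49 ± 5.54 CPM after P4 (-1.04 ± 0.89), with 1 high P4 library, that of cow D, at 12.9 CPM; without it the value was -0.07. EGFR, the epidermal growth factor receptor, had 22.4, 15.6 and 25.1 CPM after 17-OHPC/P4 and 29.0, 27.0 and 33.6 CPM after P4, without overlap (-0.51 ± 0.30, adjusted p = 0.663). HAND2, a stromal transcription factor, was highest in cow C, at 2.11, 2.78 and 9.53 CPM after 17-OHPC/P4 and 0.880, 1.63 and 3.03 CPM after P4. Glucocorticoid-responsive genes had 7 positive and 7 negative values (median 0.01) and estrogen-responsive genes 13 positive of 22 (median 0.02). DDIT4, a glucocorticoid-induced inhibitor of growth signalling, averaged 161 ± 48.1 CPM after 17-OHPC/P4 and 100.2 ± 25.1 CPM after P4 (0.69 ± 0.36, adjusted p = 0.603).

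Genes of cell division had mostly positive values. Of 30 proliferation genes, 27 had higher fitted levels after 17-OHPC/P4, with a median log2 fold change of 0.89, against 9566 positive values of 19638 and a median of -0.02 over all genes. None passed the adjusted threshold (smallest adjusted p 0.507), and 1 had an unadjusted p under 0.05. RRM2, a ribonucleotide reductase subunit, had 2.24, 7.43 and 13.4 CPM after 17-OHPC/P4 and 1.55, 3.25 and 1.11 CPM after P4 (1.96 ± 0.85, adjusted p = 0.507; 1.29 without cow C). BIRC5, which encodes survivin, had 3.33, 8.77 and 16.1 CPM after 17-OHPC/P4 and 1.62, 4.74 and 1.61 CPM after P4 (1.82 ± 0.90, adjusted p = 0.578; 1.19 without cow C). MKI67 had 8.80, 25.0 and 49.0 CPM after 17-OHPC/P4 and 4.72, 36.5 and 6.48 CPM after P4 (0.79 ± 0.95), or 0.09 without cow C and 2.32 without cow E. In all 3 genes cow C was highest and cow A lowest after 17-OHPC/P4, and cow E was highest after P4, so the groups overlapped. The list's median was 0.27 on untreated day 7 and -0.78 on untreated day 4, when 1 of 30 values was positive. The differences of the within-cow changes, which use the same treated libraries, had a median of 0.81, with 28 of 30 positive. Over all genes that median was -0.05, with 8930 of 19638 positive. The summed level of the list was 945, 671 and 883 CPM after 17-OHPC/P4 and 496, 747 and 633 CPM after P4 (exact two-sided permutation test, p = 0.2). Cow C's library was also the one with the highest stromal and red blood cell levels, and the part of these in the values of the list was not tested.

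**Figure D4:**
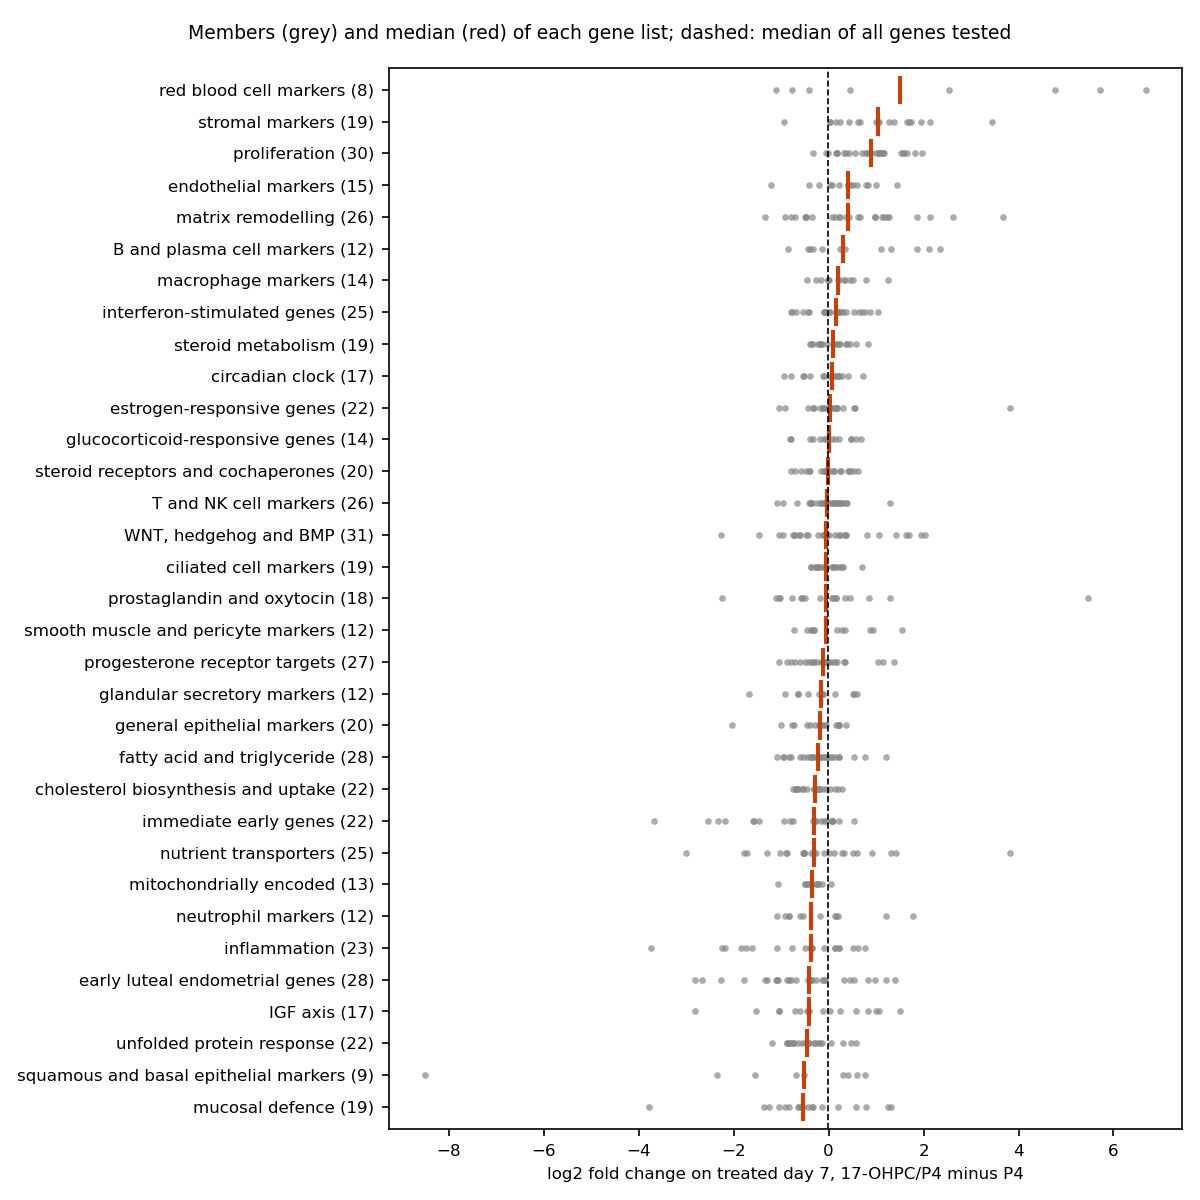
Log2 fold change on treated day 7, 17-OHPC/P4 minus P4, of each tested member (grey points) and the median (red bar) of the gene lists, with the number of tested members after each name. The dashed line is the median of all 19638 genes tested, -0.02. Medians run from -0.54 for mucosal defence to 1.50 for red blood cell markers, and no grey point passed the adjusted threshold.

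Genes of protein folding in the endoplasmic reticulum leaned the other way. Of 22 unfolded protein response genes, 4 had positive and 18 negative values (median -0.45), 3 of the negative ones with an unadjusted p under 0.05. PDIA4, a protein disulfide isomerase, had 342, 226 and 172 CPM after 17-OHPC/P4 and 189, 484 and 685 CPM after P4 (-0.88 ± 0.37, adjusted p = 0.495; -0.45 without cow F). ATF4, the transcription factor of the integrated stress response, ran against the list, with 245, 286 and 194 CPM after 17-OHPC/P4 and 184, 170.3 and 165 CPM after P4 (0.48 ± 0.16, adjusted p = 0.376). ATF4 did not overlap on untreated day 7 either, and its list had 2 of 22 values positive on that day (median -0.59).

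Lipid genes were similar in direction. Of 22 cholesterol genes 4 were positive (median -0.28), and of 28 fatty acid and triglyceride genes 8 were positive (median -0.21). The arms leaned the same way on untreated day 7, with 4 of 22 cholesterol genes positive (median -0.38) and 9 of 28 fatty acid genes positive (median -0.26). DGAT1, which like DGAT2 makes triglycerides, had the smallest p of the fatty acid list. It had 34.6, 51.3 and 31.3 CPM after 17-OHPC/P4 and 54.1, 74.1 and 100.3 CPM after P4 (-0.96 ± 0.26, adjusted p = 0.292), without overlap, and it did not overlap on untreated day 7 (-0.83 ± 0.26). The fatty acid synthase gene FASN had 557, 368 and 295 CPM after 17-OHPC/P4 and 421, 804 and 1105 CPM after P4 (-0.93 ± 0.45, adjusted p = 0.559; -0.59 without cow F). EBP, a sterol isomerase, averaged 37.6 ± 9.94 CPM after 17-OHPC/P4 and 59.8 ± 7.65 CPM after P4 (-0.67 ± 0.26, adjusted p = 0.447).

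Immediate early and inflammatory genes were high in cow E, and their fold changes depended on it. NR4A1, an orphan nuclear receptor induced within minutes of a stimulus, had 7.01, 29.4 and 7.09 CPM after 17-OHPC/P4 and 5.88, 535 and 13.4 CPM after P4 (-3.67 ± 1.47, adjusted p = 0.465; 0.60 without cow E). PTGS2, the inducible cyclooxygenase, had 15.7, 109 and 74.6 CPM after 17-OHPC/P4 and 8.24, 908 and 28.3 CPM after P4 (-2.24 ± 1.36, adjusted p = 0.672; 1.87 without cow E). The immediate early list summed to 989, 2548 and 1121 CPM after 17-OHPC/P4 and to 861, 4447 and 852 CPM after P4. Of its 22 members 6 had positive values (median -0.31), against 20 of 22 on untreated day 7 (median 0.83), when cow C stood at 6419 CPM. The cytokine gene IL6 stood at 1.86 CPM in cow E and at no more than 0.352 CPM in the other 5 treated libraries. Interferon-stimulated genes had 15 positive values of 25 (median 0.15). Their smallest p was that of IFIT5, with 46.8, 42.6 and 42.2 CPM after 17-OHPC/P4 and 38.2, 23.8 and 28.7 CPM after P4 (0.54 ± 0.19, adjusted p = 0.391).

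Summed markers of cell types overlapped between the treated groups in all 10 lists of the marker plot, and in brushed tissue fewer cells of a type and less RNA per cell cannot be told apart. The 20 epithelial markers summed to 4646, 5656 and 5269 CPM after 17-OHPC/P4 and to 4811, 8503 and 6512 CPM after P4 (exact two-sided permutation test, p = 0.3). Among them were the tight junction genes CLDN3 (-0.73 ± 0.32, and -0.32 without cow E) and CLDN7 (-0.77 ± 0.37), which were not called. The 19 stromal markers had 18 positive values (median 1.04, and 0.97 and 1.30 on untreated day 7 and day 4), yet their sum was 693, 588 and 4236 CPM after 17-OHPC/P4 and 2411, 726 and 505 CPM after P4 (exact two-sided permutation test, p = 0.7). THY1, a surface protein of fibroblasts, was typical, at 14.6, 13.6 and 101 CPM after 17-OHPC/P4 and 21.5, 12.4 and 7.13 CPM after P4 (1.66 ± 0.99, or 0.04 without cow C). Cow C also carried the haemoglobin gene HBB at 352 CPM, with 3.89 CPM or less in the other 5 libraries.

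Ciliated cell markers summed to 110.1, 691 and 350 CPM after 17-OHPC/P4 and to 731, 279 and 166 CPM after P4. FOXJ1, the master regulator of motile cilia, stood at 11.2, 104 and 43.3 CPM after 17-OHPC/P4 and 72.3, 49.4 and 22.4 CPM after P4. Neutrophil markers summed to 10.0, 167 and 40.8 CPM after 17-OHPC/P4 and to 123, 46.9 and 62.6 CPM after P4, and S100A8 and S100A9 had 0 counts in cow A. Macrophage markers summed to 44.4, 297 and 216 CPM after 17-OHPC/P4 and to 200.1, 189 and 73.6 CPM after P4, again lowest in cow A. T and NK cell markers stood at 151, 249 and 230.1 CPM after 17-OHPC/P4 and 220.3, 218 and 215 CPM after P4, lowest in cow A. The part of T cell content in the TNFRSF4 difference was not tested. PTPRC, the common leukocyte antigen CD45, averaged 47.5 ± 13.3 CPM after 17-OHPC/P4 and 53.4 ± 7.80 CPM after P4. Basal and squamous markers summed to 27.8, 64.1 and 58.5 CPM after 17-OHPC/P4 and to 146, 75.7 and 54.3 CPM after P4. Among them KRT14 stood at 3.03 to 9.13 CPM and KRT5 at 1.15 to 12.3 CPM. TP63 had 0 counts in 4 of the 6 libraries and at most 0.128 CPM in the others.

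**Figure D5:**
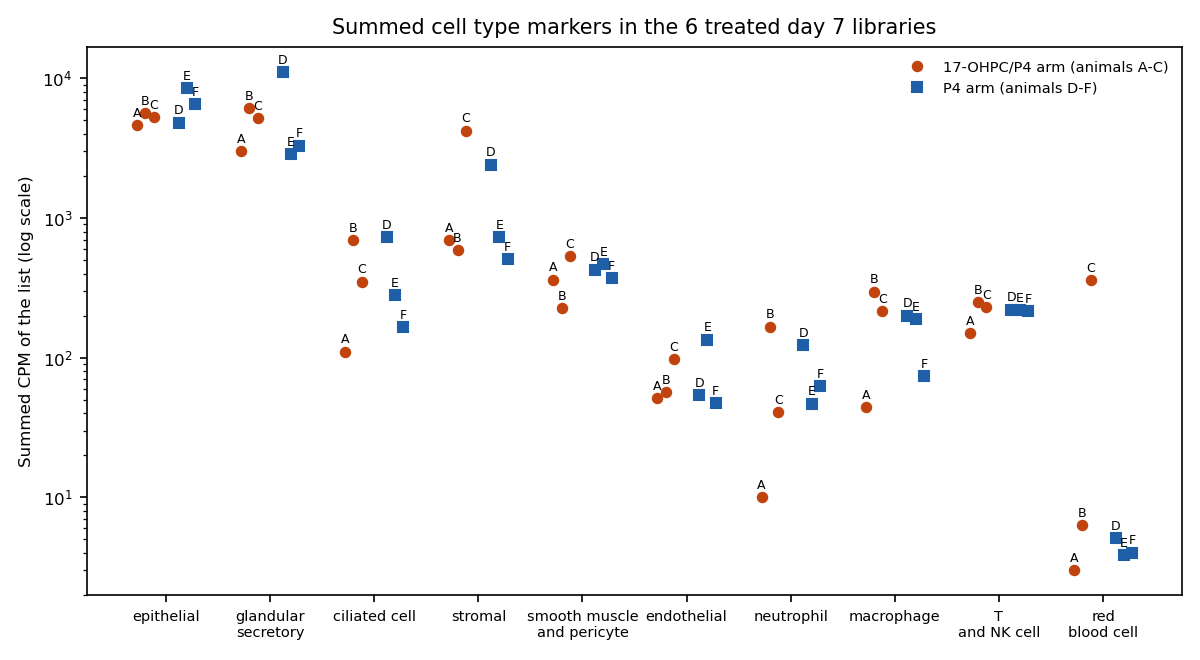
Summed CPM of 10 cell type marker lists in the 6 treated day 7 libraries, on a log axis, with the cow's letter at each point. Circles are the 17-OHPC/P4 libraries and squares the P4 libraries. The groups overlap in all 10 lists, cow A is lowest in neutrophil and macrophage markers, and cow C is highest in stromal and red blood cell markers.

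The 13 mitochondrially encoded messenger RNAs had 12 negative values (median -0.36), and 1 positive of 13 with a median of -0.31 on untreated day 7. MT-ATP8, a subunit of ATP synthase, had 329, 248 and 249 CPM after 17-OHPC/P4 and 704, 609 and 424 CPM after P4 (-1.07 ± 0.34, adjusted p = 0.354), and it was the 1 member without overlap. Its levels on untreated day 7 were 161, 125 and 312 CPM in the 17-OHPC/P4 arm and 533, 619 and 498 CPM in the P4 arm. Mucosal defence genes had 5 positive values of 19 (median -0.54), and likewise 5 of 19 on untreated day 7 (median -0.45). WFDC2, a secreted protease inhibitor, had 771, 495 and 812 CPM after 17-OHPC/P4 and 1038, 1290.3 and 918 CPM after P4, without overlap (-0.64 ± 0.30, adjusted p = 0.553). The amino acid transporter SLC1A4 had 35.8, 43.4 and 63.0 CPM after 17-OHPC/P4 and 33.7, 16.5 and 25.3 CPM after P4 (0.91 ± 0.35, adjusted p = 0.448), again without overlap.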

How the data were processed

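Poly(A) RNA from 18 brushed endometrium samples of 6 cows was analysed, 3 cows in each of 6 groups. Per the submitters' processing notes, cutadapt, FastQC, STAR, featureCounts and DESeq2 were used, and the submitted text used here states no version, genome build, annotation or strand setting. The authors deposited raw counts per gene for 38001 Ensembl identifiers, 17715 without a symbol. No identifier matched the reference table at hand, so no coordinates or sequences are given. Rows sharing a symbol are named by identifier.

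Genes were kept by filterByExpr in edgeR 4.0.16 (R 4.3.3), which left 19638. One model with a mean for each group covered the 18 libraries (TMM factors 0.881 to 1.16, quasi-likelihood F test, Benjamini-Hochberg over all genes tested, adjusted p under 0.05 called). Reads that antisense or overlapping genes share cannot be told apart. The biological coefficient of variation was 51.4%. Contrasts were 17-OHPC/P4 minus P4 on treated day 7 and the same cows on untreated day 7 and day 4. The difference of the within-cow changes was fitted with the cow as a fixed block. CPM used TMM-scaled library sizes, 0.5 was added before logs, and single values were compared by exact permutation tests.

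The cow letter pairs samples across days, since labels give it as the same animal. Deviations of same-cow libraries from their group means correlated at 0.45 to 0.76 in cows A to C and at -0.17 to 0.40 in cows D to F. Replicates are separate cows. The named genes were the called genes, the 10 smallest p in each direction, the 2 smallest p of each of 33 lists (603 of 644 symbols had a row) and a fixed panel, of which the text gives those that carry the comparison. Members and lists were chosen with earlier results of these data known. Alternatives were size factors, filters on low counts, DESeq2, limma voom with and without the cow as block, the 6 libraries alone and leaving out each treated library.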

Additional observations from a re-analysis of the deposited data

Results flagged for a closer look

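POMT1, the O-mannosyltransferase among the leading lower genes, had a change below 0 in every cow of 1 arm and above 0 in every cow of the other arm, though cows A and B hardly moved. This pattern was looked for only among the 22 leading genes, which were ranked on the same treated libraries. Its share over all genes was not counted. From untreated to treated day 7 its log2(CPM + 0.5) changed by -0.00, -0.02 and -0.20 in cows A, B and C of the 17-OHPC/P4 arm and by 0.26, 0.46 and 0.49 in cows D, E and F of the P4 arm. The difference of the changes was -0.48 ± 0.15 in edgeR with the cow as a block (adjusted p = 1), so it did not pass the correction over all genes.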

How the results depend on the processing

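The count of 0 higher and 2 lower genes on treated day 7 was the same with DESeq2's size factors in edgeR, without mitochondrial and the 10 largest genes, with limma voom and with limma voom with the cow as block (0 and 2 with the block). Without a filter on low counts it was 1 and 2, with a minimum of 1 CPM in 3 libraries 3 and 2, with DESeq2 114 and 101, and with the 6 treated libraries alone 0 and 0. Leaving out 1 treated library gave 0 higher genes and 0 to 2 lower genes. Between the arms on untreated day 7 DESeq2 called 131 higher and 234 lower. On untreated day 4 the counts were 90 and 97 without a filter, 489 and 242 with the CPM minimum, 326 and 427 with limma voom, and 1245 and 1062 with DESeq2, against 256 and 286 in edgeR as reported. The difference of the within-cow changes gave 0 calls with and without the block. The cause of these shifts was not tested.

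Of 961 values of 69 named genes under the alternatives, 906 kept direction and side of the threshold, 20 changed sign, 27 newly passed (all with DESeq2, except ZMAT2 with the CPM minimum) and 8 no longer passed, all of the 2 called genes. Sign changes came in genes whose groups overlapped. Ranges over the values with 1 library left out were -4.71 to 0.60 for NR4A1, -3.27 to 1.04 for TINAGL1, -2.87 to 1.55 for MSTN, -2.81 to 1.87 for PTGS2, -0.70 to 0.26 for DGAT2, -0.11 to 0.29 for ESR1, -1.06 to 2.26 for LTF, -1.07 to 1.60 for OXTR, -0.81 to 0.62 for FOXJ1, -2.65 to 0.077 for S100A8 and -0.38 to 0.027 for PTPRC. With limma voom LTF was 0.51 and FOXJ1 -0.18, and with the cow as replicate block 0.52 and -0.19.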
